A study of Mus musculus with 16 samples.

Results

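The circadian clock genes described here were Per1, Per2, Per3, Cry1, Cry2, Arntl, Clock, Nr1d1, Nr1d2 and Dbp. They were taken by gene name from tables of the dentate gyrus transcriptome, and all 10 of 10 names were found, each as a single entry, among 24421 gene names. All 10 members passed the filter on low values (0.1 TPM or more on average), which left 17317 genes for testing. Levels are given in TPM (a relative read abundance corrected for transcript length), so that levels of different genes can be set side by side.

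The dentate gyrus was dissected from male C57BL/6 mice of 1 year of age, either p16 wild-type or p16 knockout (lacking p16Ink4a, an inhibitor of the cyclin-dependent kinases that drive entry into the cell cycle). Mice were sedentary or had free access to a running wheel for 12 days, which gave the groups p16 WT CTL (replicates 1 to 4), p16 KO CTL (5 to 8), p16 WT RUN (9 to 12) and p16 KO RUN (13 to 16). Each of the 16 libraries pooled the tissue of 2 mice, and no mice are shared by libraries, so that n = 4 in each group stands for 8 mice. The knockout is constitutive and present in every cell, its strain was made in the FVB background and then bred to C57BL/6, and it leaves p19Arf, the other product of the locus, in place. The hour of dissection of each mouse, and the distance run by the mice of each library, are not given in the sources used here. Levels of most clock genes follow the hour of the day, and the part of the hour or of the distance in the values below was not tested.

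The molecular clock is a feedback loop of transcription that runs in nearly every cell of the body. BMAL1, the protein made from Arntl, pairs with CLOCK or with its relative NPAS2, binds E-boxes, and switches on the Per, Cry, Nr1d1, Nr1d2 and Dbp genes. PER and CRY proteins then enter the nucleus and repress BMAL1 and CLOCK, while NR1D1 and NR1D2 (REV-ERB alpha and beta) repress Arntl through ROR elements, and DBP with its relatives TEF and HLF drives further genes through D-boxes. In tissues with a running clock, the Arntl transcript is therefore high when the Nr1d1 and Dbp transcripts are low, and the reverse. The Clock transcript itself cycles little in most tissues.

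The elements of this loop can be read in the promoter sequence. Windows from 250 bases before to 50 bases after an annotated start were available from RefSeq (GRCm38.p6) for 9 of the 10 members, with no entry for Per2. Each window was searched on both strands for the E-box CACGTG, the related E-prime box CACGTT, the D-boxes TTATGTAA and TTACGTAA, the ROR element TAGGTCA and the cyclic AMP response element TGACGTCA, and 6 of the 9 members searched held a match. No match overlapped that of another motif. The stretches below are those of Per1, Cry1 and Nr1d1, whose products close the loop, of Ciart, another repressor, which followed Dbp most closely among 28 further clock genes outside the members, of Per3, with 2 D-boxes, and of Arntl. They are written 5′ to 3′ on the strand of the gene, with the matched letters in capitals.

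Per1, chr11:69098749-69098828, plus strand, before the first start: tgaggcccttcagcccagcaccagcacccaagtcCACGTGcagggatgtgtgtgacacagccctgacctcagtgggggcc
Cry1, chr10:85185085-85185164, minus strand, before the start: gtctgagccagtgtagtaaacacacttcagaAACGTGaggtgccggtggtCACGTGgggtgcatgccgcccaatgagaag
Nr1d1, chr11:98775378-98775457, minus strand, before the start: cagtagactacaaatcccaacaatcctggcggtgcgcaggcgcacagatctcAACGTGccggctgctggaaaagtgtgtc
Ciart, chr3:95882267-95882346, minus strand, before the start: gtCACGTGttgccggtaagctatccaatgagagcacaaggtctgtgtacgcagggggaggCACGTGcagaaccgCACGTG
Per3, chr4:151044806-151044885, minus strand, before the start: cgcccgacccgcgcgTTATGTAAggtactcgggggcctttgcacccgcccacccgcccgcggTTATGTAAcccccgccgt
Arntl, chr7:113207530-113207559, plus strand, after the second start: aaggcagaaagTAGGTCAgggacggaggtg

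The E-box of Per1 began at position -166, counting back from its first start. Cry1 held an E-box at -60 and an E-prime box at -79, and Nr1d1 an E-prime box at -28. Cry2 held an E-prime box at -166, which is not printed. Ciart held 3 E-boxes, at -116, -58 and -44, and the D-boxes of Per3 were at -205 and -158. The ROR element of Arntl, the letters that NR1D1 and the ROR proteins bind, lay 31 bases into the transcribed region of its second start. The windows of Clock, Nr1d2 and Dbp held none of these letters. Of all 32851 windows, 7.15% held the E-box, 4.68% the E-prime box, 1.06% a D-box, 2.61% the ROR element and 1.79% the cyclic AMP response element, so that a match is a description of the window and not evidence of binding.

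On mm10, the build of the tables, the repressor genes Per1, Per2 and Per3 lay at chr11:69098956-69109957, chr1:91415982-91459328 and chr4:151003655-151044665, and Per3 was 61.71 Mb from Cdkn2a, the gene of p16, on the same chromosome. Cry1 and Cry2 lay at chr10:85131700-85185054 and chr2:92403647-92434069. The activators Arntl and Clock lay at chr7:113207465-113314126 and chr5:76209868-76304792, the repressors Nr1d1 and Nr1d2 at chr11:98767932-98775377 and chr14:18204056-18239106, and Dbp at chr7:45705247-45710203. Dbp overlaps Sphk2 and Cry2 overlaps D930015M05Rik, each on the opposite strand, and the microRNA gene Mir1191 lies within Clock.

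All members were well expressed. Over the 16 libraries, the nuclear receptor Nr1d1 was highest, with a mean of 152 ± 17.97 TPM (SD, n = 16), followed by the repressor Cry2 with 105 ± 7.75 TPM. Each of these was above the next gene in 16 of 16 libraries. Per1, Dbp and Nr1d2 had close means of 48.0, 47.0 and 46.0 TPM, and their order was not fixed, since Per1 was above Dbp in 9 of 16 libraries and Dbp above Nr1d2 in 7 of 16. Arntl (36.8 ± 6.31 TPM) was above Clock (33.6 ± 2.96 TPM) in 13 of 16 libraries, and Clock was above Per2 in 16 of 16. Per2, Per3 and Cry1 were lowest, with means of 20.2, 17.5 and 15.0 TPM. The lowest read coverage of any member in any library was 23.6, for Per3.

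The libraries held RNA of the dentate gyrus and of neighbouring cells. All 6 markers of dentate granule neurons were above 1 TPM in every library (summed level 426 to 1217 TPM), and so were the 8 markers of CA1 to CA3 pyramidal neurons (900.2 to 1089 TPM), the 5 of astrocytes, the 5 of oligodendrocytes, the 5 of microglia, the 5 of endothelium and the 7 of thalamus and habenula. Of 6 choroid plexus markers, 3 were at 0 in some library, and their sum was 212 TPM in p16 KO CTL replicate 7 against 16.9 to 62.0 TPM in the other 15 libraries. That library also had the highest Dbp and the lowest Arntl and Clock levels. Without it 1 member was below an unadjusted 0.05 in Set A, where 3 were so with it. The share of all genes in Set A was 11.7% without that library and 18.5% with it. The part of those cells was not tested. Nuclear noncoding RNAs (8 markers, among them Malat1 and Meg3) summed to between 479 and 977 TPM in 3 sedentary libraries, p16 WT CTL replicate 2 and p16 KO CTL replicates 6 and 7, against 1828 to 2533 TPM in the other 13, and the comparisons of the members and of other clock genes, and the members' correlations with Arntl, were also computed without these 3. Median read coverage, relative to the average library, was 0.90 to 1.95 in the sedentary libraries and 0.62 to 0.89 in the running ones, without overlap, so that depth and running cannot be told apart. In whole tissue, fewer cells of a type and less RNA per cell cannot be told apart either.

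Running was compared first, over both genotypes, with genotype as a term (8 running against 8 sedentary libraries). Clock was higher in the running mice, whereas Dbp and Nr1d1 were lower, each at an unadjusted p-value below 0.05. These are 3 of 10 members, against 17.5% of all genes tested, 9.61% higher and 7.88% lower. After Benjamini-Hochberg adjustment over all genes, no member was below 0.05, against 0.797% of all genes (138). The median log2 fold change was -0.01 over the members and 0.01 over all genes, and the median size of the change was 0.18 against 0.11.

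Clock, which encodes the DNA-binding partner of BMAL1, showed the most uniform difference. Its levels were 32.9, 29.6, 33.3 and 34.7 TPM in p16 WT CTL and 33.1, 30.5, 26.4 and 30.7 TPM in p16 KO CTL. They were 38.0, 36.0, 35.5 and 35.8 TPM in p16 WT RUN and 34.4, 35.6, 35.1 and 35.4 TPM in p16 KO RUN. Within each genotype, the running and sedentary libraries did not overlap. Over both genotypes, all 8 running libraries were above all 8 sedentary ones after scaling, which held in either direction for 0.45% of all genes, and 7 of 8 were so in TPM as deposited. The log2 fold change was 0.15 ± 0.036 (SE), with a 95% confidence interval of 1.05 to 1.17 for the fold itself (limma, p = 0.000659, adjusted p = 0.0588, exact permutation p = 0.000408). The latter is the smallest p-value this permutation can give with genotype held fixed. The adjusted p of Clock was 0.0494 with a filter of 1 TPM and 0.0402 with no filter. The lowest 3 of all Clock levels came from the libraries low in nuclear RNA, and without these the log2 fold change was 0.12 (unadjusted p-value 0.00345, adjusted p = 0.304). In that fit (limma) 0 of all genes had an adjusted p-value below 0.05 and 1511 an unadjusted one. Read coverage separated the same libraries as Clock did, and its part in the result was not tested.

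Dbp, the output transcription factor of the clock and a direct BMAL1 target, had the largest difference of the 10 members. The sedentary libraries held 56.4, 48.4, 55.0 and 47.7 TPM in p16 WT CTL and 62.1, 46.2, 66.8 and 50.4 TPM in p16 KO CTL. The running libraries held 57.7, 25.7, 46.7 and 36.7 TPM in p16 WT RUN and 54.7, 23.0, 33.8 and 40.3 TPM in p16 KO RUN. Replicates 10 and 14, 1 of each genotype, were far below every sedentary library. Replicates 9, 11 and 13 lay within the sedentary range, replicate 11 near its lower end. In all, 5 of 8 running libraries were below the lowest sedentary one. The log2 fold change was -0.54 ± 0.17 (SE), or 0.689-fold with an interval of 0.54 to 0.88 (limma, p = 0.0052, adjusted p = 0.129, exact permutation p = 0.0114). Without any single library its p-value was between 0.00107 and 0.0125, and without the 3 libraries low in nuclear RNA it was 0.0239.

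Nr1d1 and Nr1d2, the REV-ERB repressors of Arntl, had a similar distribution. Nr1d1 was nearly constant in the sedentary groups, at 163.6, 154.4, 152.3 and 159.4 TPM in p16 WT CTL and 172.2, 153.5, 160.4 and 158.1 TPM in p16 KO CTL. With running it was 175.5, 114.5, 162.1 and 146.0 TPM in p16 WT RUN and 170.3, 113.8, 140.1 and 141.7 TPM in p16 KO RUN. Again 5 of 8 running libraries were below all sedentary ones, and 1 was above them. The log2 fold change of Nr1d1 was -0.19 ± 0.079 (limma, p = 0.0312, adjusted p = 0.24, exact permutation p = 0.0437). The call was lost without some single libraries, where p was 0.0709 without replicate 10, 0.071 without replicate 14, 0.0527 without replicate 5 and 0.0571 without replicate 7. In TPM as deposited, with all libraries, it was 0.0964 (log2 fold change -0.15), and it was 0.117 without the 3 libraries low in nuclear RNA (-0.16). Nr1d2 was 51.9, 41.9, 56.9 and 54.1 TPM in p16 WT CTL, 54.8, 40.5, 47.9 and 46.9 TPM in p16 KO CTL, 57.9, 29.9, 54.1 and 39.4 TPM in p16 WT RUN and 52.5, 23.3, 42.9 and 40.4 TPM in p16 KO RUN. Its log2 fold change of -0.30 ± 0.15 did not pass (limma, p = 0.057, exact permutation p = 0.0816), and its p-value was between 0.0229 and 0.0426 without any 1 of replicates 2, 9, 11 and 13.

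Arntl, the activator that NR1D1 and NR1D2 repress, stood on the other side. Its levels were 34.9, 30.7, 36.3 and 36.4 TPM in p16 WT CTL and 32.5, 35.3, 28.0 and 34.0 TPM in p16 KO CTL. They were 34.1, 42.5, 35.7 and 43.6 TPM in p16 WT RUN and 31.1, 53.7, 36.6 and 43.5 TPM in p16 KO RUN. Replicates 10, 12, 14 and 16 were the highest 4 of all libraries, and replicates 9, 11 and 13 lay within the sedentary range. The log2 fold change was 0.20 ± 0.097 (limma, p = 0.0507, adjusted p = 0.287, exact permutation p = 0.0698). The interval of the difference was -0.00066 to 0.41 on the log2 scale. In TPM as deposited the log2 fold change of Arntl was 0.24, with an unadjusted p-value of 0.0228. Leaving out single libraries gave p-values between 0.0101 and 0.109, below 0.05 without any 1 of replicates 6, 9, 11, 13 and 15, and without replicate 14 the log2 fold change was 0.13.

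**Figure D1:**
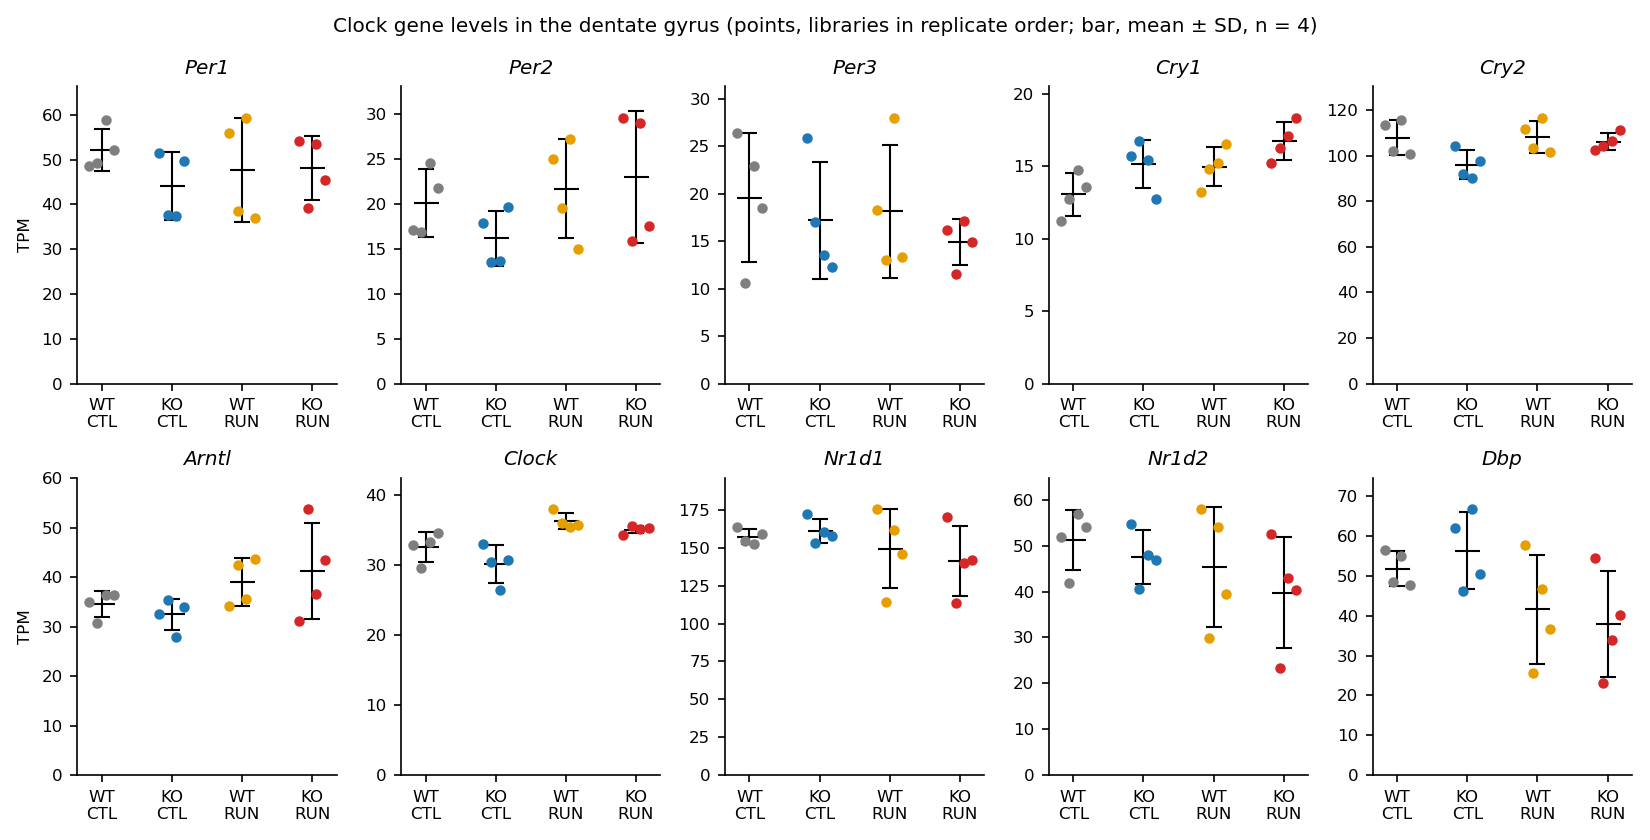
Level in TPM (vertical axes, from 0) of each of the 10 clock genes in the 4 groups; points are libraries in the order of their replicate numbers and bars the mean ± SD (n = 4). Clock in the running groups lay between 34.4 and 38.0 TPM, while Dbp there ran from 23.0 to 57.7 TPM.

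The period genes, which encode the PER repressors, gave no call with running. Per1 was 48.6 to 58.8 TPM in p16 WT CTL, 37.3 to 51.5 TPM in p16 KO CTL, 36.9 to 59.3 TPM in p16 WT RUN and 39.2 to 54.2 TPM in p16 KO RUN, with a log2 fold change of -0.05 ± 0.10 (limma, exact permutation p = 0.62). Its lowest running values were in replicates 10, 12 and 14, where Arntl was high. Per2 had means of 20.1 ± 3.78 TPM in p16 WT CTL, 16.2 ± 3.07 TPM in p16 KO CTL, 21.7 ± 5.50 TPM in p16 WT RUN and 23.0 ± 7.32 TPM in p16 KO RUN (SD, n = 4). Replicates 9, 11, 13 and 15 exceeded all sedentary libraries (25.0, 27.2, 29.6 and 29.0 TPM), and the log2 fold change over both genotypes was 0.24 ± 0.15 (limma, p = 0.134, exact permutation p = 0.173). Without replicate 12 it was 0.33, with an unadjusted p-value of 0.0353. Per3 varied most among the members within the sedentary groups, with 26.4, 10.6, 22.9 and 18.5 TPM in p16 WT CTL alone, and its log2 fold change of -0.17 had an interval from -0.58 to 0.24.

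The cryptochromes, partners of the PER proteins, varied less. Cry2 was 101 to 116 TPM in p16 WT CTL, 90.2 to 104 TPM in p16 KO CTL, 102 to 117 TPM in p16 WT RUN and 103 to 111 TPM in p16 KO RUN, and its log2 fold change with running was 0.04 ± 0.038 (limma, p = 0.352, exact permutation p = 0.303). Cry1 was 11.2, 12.8, 14.8 and 13.6 TPM in p16 WT CTL, 15.7, 16.7, 15.4 and 12.8 TPM in p16 KO CTL, 13.3, 14.8, 15.3 and 16.5 TPM in p16 WT RUN and 15.2, 16.3, 17.1 and 18.4 TPM in p16 KO RUN. With running its log2 fold change was 0.13 ± 0.074 (limma, p = 0.0936, exact permutation p = 0.098). Its unadjusted p-value was 0.0313 in TPM as deposited (log2 fold change 0.17) and 0.0417 without replicate 6. Without the 3 libraries low in nuclear RNA the log2 fold change was 0.21, with an unadjusted p-value of 0.0214 (adjusted p = 0.461).

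Running was then compared within each genotype, with 4 libraries against 4. Dbp had the most negative log2 fold change in both, while the most positive was that of Per2 in the knockout (0.40) and of Cry1 in the wild-type (0.18), and neither of the latter passed. In the knockout (Set A, p16 KO RUN compared with p16 KO CTL), 3 of 10 members had an unadjusted p-value below 0.05, against 18.5% of all genes. Clock was higher (log2 fold change 0.16 ± 0.061, limma, p = 0.0288, exact permutation p = 0.0286, the smallest for 4 against 4). Dbp (-0.69 ± 0.23, p = 0.0157, exact permutation p = 0.0857) and Nr1d1 (-0.27 ± 0.099, p = 0.025, exact permutation p = 0.0857) were lower. Without the 3 libraries low in nuclear RNA, 2 of which belong to p16 KO CTL, none of the 3 was below 0.05, although the log2 fold changes were 0.12, -0.65 and -0.26, and 8.49% of all genes were. The summed oligodendrocyte markers were 1326 to 2244 TPM in p16 KO CTL and 1007 to 1345 TPM in p16 KO RUN, and those of microglia 268 to 386 and 249 to 305 TPM. In the same order, those of dentate granule neurons were 426 to 911 and 807 to 1217 TPM, and those of endothelium 39.4 to 79.7 and 67.8 to 103 TPM. The part of these cells in the Set A values was not tested. Cry2, at 0.082 in Set A, had an unadjusted p-value of 0.033 in TPM as deposited (0.15) and 0.0266 with no filter. Nr1d1 in Set A had an unadjusted p-value of 0.095 in TPM as deposited (-0.20) and between 0.0506 and 0.0587 without any 1 of replicates 5, 7 and 14. Its log2 fold change was -0.18 without replicate 14, and -0.26 and -0.25 without replicates 5 and 7. Clock in Set A had an unadjusted p-value between 0.0578 and 0.0735 without any 1 of replicates 7, 14 and 15. In the wild-type (Set C, p16 WT RUN compared with p16 WT CTL), Clock alone was below 0.05 (0.14 ± 0.055, limma, p = 0.0279, exact permutation p = 0.0286), 1 of 10 members against 4.81% of all genes. Its unadjusted p-value was between 0.0523 and 0.0774 without any 1 of replicates 3, 9 and 10. Dbp had a log2 fold change of -0.39 ± 0.20 in Set C (p = 0.0904, exact permutation p = 0.2), and of -0.56 without replicate 9 (unadjusted p-value 0.0117). Clock did not overlap between groups in either set, which held for 10.4% of genes in Set A and 3.34% in Set C. No member had an adjusted p-value below 0.05 in any comparison (limma). Of all genes, 0.0173% (3) did so in Set A, 0.00577% (1) in Set E and none in Set B, Set C, Set D, the knockout over both conditions or the interaction.

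**Figure D2:**
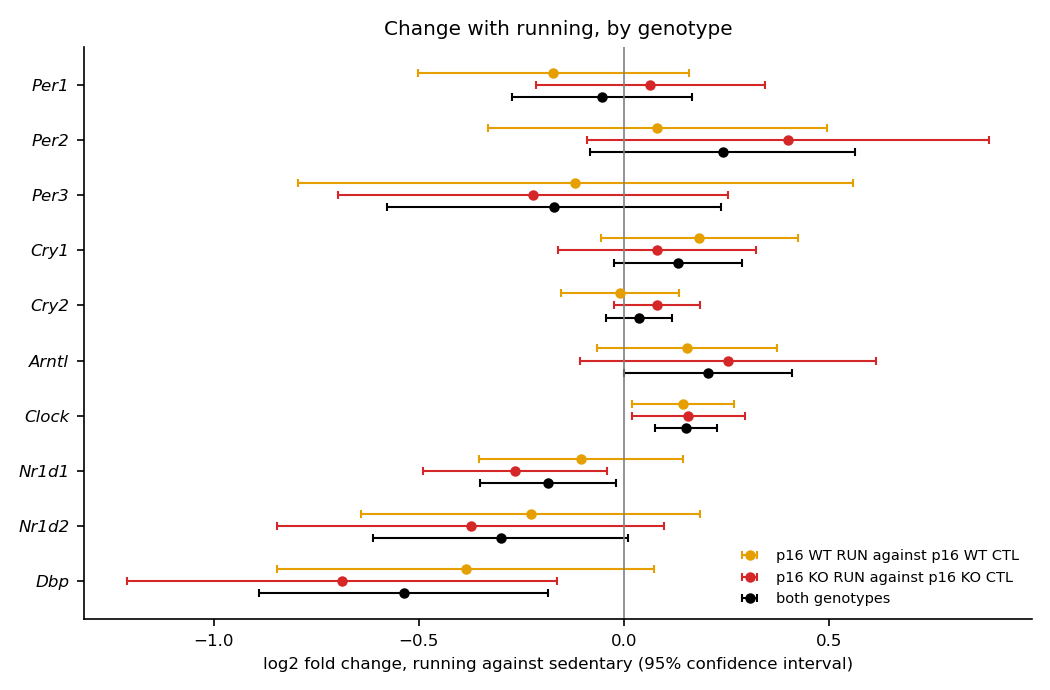
Log2 fold change with running (horizontal axis, 95% confidence interval from limma) of the 10 members in the wild-type (Set C), in the knockout (Set A) and over both genotypes. The intervals of Clock lie above 0 in each fit, and the estimates of Dbp are -0.39, -0.69 and -0.54.

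Whether running acted differently in the knockout was tested with the genotype by running interaction. No member had an unadjusted p-value below 0.05 (limma, 0 of 10 members, against 5.48% of all genes). For Dbp the difference between genotypes was -0.30 on the log2 scale with an interval from -1.01 to 0.41 (limma, adjusted p = 0.845), and for Clock it was 0.01 with an interval from -0.14 to 0.17 (adjusted p = 0.97). For Per2 it was 0.32 with an interval from -0.33 to 0.97. These intervals are wide for the variable members, and the data do not show that the genotypes responded alike.

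Loss of p16 was compared over both conditions, with running as a term. Cdkn2a itself averaged 0.17 and 0.20 TPM in p16 WT CTL and p16 WT RUN. It averaged 0.13 and 0.10 TPM in p16 KO CTL and p16 KO RUN, and every group had a library at 0. The level of this gene did not separate the genotypes, which are taken from the sample labels. Cry1 was the only member with an unadjusted p-value below 0.05, 1 of 10 members against 6.94% of all genes, and it was higher in the knockout. Its log2 fold change was 0.22 ± 0.074, or 1.17-fold with an interval of 1.05 to 1.30 (limma, p = 0.00875, adjusted p = 0.696, exact permutation p = 0.0106). Mean levels were 13.1 ± 1.49 TPM in p16 WT CTL and 15.2 ± 1.69 TPM in p16 KO CTL, and 15.0 ± 1.34 TPM in p16 WT RUN and 16.7 ± 1.32 TPM in p16 KO RUN. Without the 3 libraries low in nuclear RNA, it was 0.16 and the unadjusted p-value 0.055. Dbp, Nr1d1 and Arntl had log2 fold changes of 0.02, 0.01 and 0.02 between genotypes, each with an interval that spans 0 (for Dbp -0.34 to 0.37).

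Cry1 was likewise the only member below 0.05 in the sedentary mice, 1 of 10 against 6.69% of all genes (Set B, knockout compared with wild-type, log2 fold change 0.27 ± 0.12, limma, p = 0.0481, exact permutation p = 0.114). In Set B it was not below 0.05 with a pseudocount of 1, with no filter or with no variance trend, nor without any 1 of replicates 1, 2, 4, 5, 6 and 7. In TPM as deposited its unadjusted p-value was 0.111, and that of Cry2 was 0.0405 (-0.17). Cry1 was not below 0.05 without the 3 libraries low in nuclear RNA either (0.15, unadjusted p-value 0.347). When running knockouts were set against sedentary wild-types (Set D), 2 of 10 members were below 0.05, against 8.63% of all genes (limma). Cry1 was higher (0.35 ± 0.096, p = 0.00517, exact permutation p = 0.0286), with all 4 libraries of p16 KO RUN above all 4 of p16 WT CTL. Dbp was lower (-0.52 ± 0.21, p = 0.0381, exact permutation p = 0.114), but its unadjusted p-value was 0.0735 with no filter and 0.0602 with no variance trend. It was between 0.0639 and 0.0859 without any 1 of p16 WT CTL replicates 1, 2 and 3 and p16 KO RUN replicates 14 and 15, and without replicate 14 the log2 fold change was -0.31. Without p16 WT CTL replicate 2, the library of these groups that was low in nuclear RNA, Per3, at -0.33 ± 0.25 with all libraries, was lower at -0.58 (unadjusted p-value 0.00758). Clock, at 0.10 ± 0.051 (limma, p = 0.0724, exact permutation p = 0.0286), had an unadjusted p-value of 0.0127 with no filter, where 7.08% of all genes were below 0.05. After scaling, Cry1 and Clock did not overlap between these groups, against 5.68% of all genes, whereas the Clock levels as deposited did. Between running knockouts and running wild-types (Set E), no member was below 0.05 (limma, against 3.87% of all genes), and Cry1 had a log2 fold change of 0.17 ± 0.090 (p = 0.0937, exact permutation p = 0.0571). Without replicate 12 or 13 its unadjusted p-value was 0.0394 or 0.0481. These comparisons share their groups and are not independent of each other.

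Beyond the mean, the running libraries differed from each other far more than the sedentary ones did for a subset of members. For Dbp, the SD of log2 levels within groups was 0.20 in the sedentary and 0.49 in the running libraries, which placed it at the 75.3rd and the 98.9th percentile of the 7599 genes within the members' range of levels. For Nr1d1 it went from 0.057 to 0.23 (percentiles 6.3 and 91.4), for Nr1d2 from 0.15 to 0.45 (56.2 and 98.4) and for Arntl from 0.10 to 0.29 (32.8 and 94.7). Per1 (0.16 and 0.28) and Per2 (0.23 and 0.42) showed the same order. Per3 (0.49 and 0.39), Cry1 (0.17 and 0.13), Cry2 (0.073 and 0.061) and Clock (0.069 and 0.042) showed the opposite one, as did the median gene of that range (0.13 and 0.10). These spreads are a description of 8 libraries each and were not tested.

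**Figure D3:**
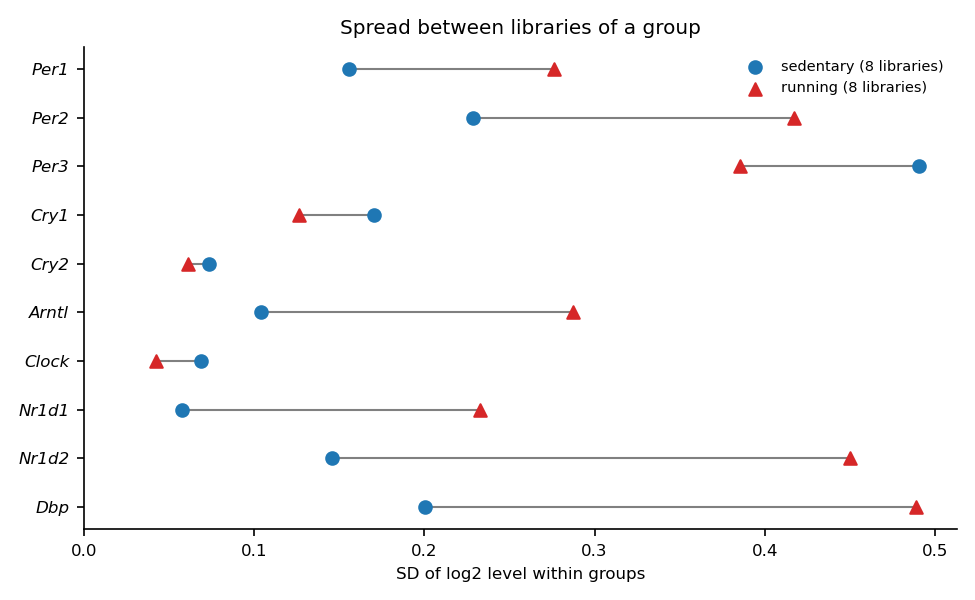
SD of log2 levels between libraries of a group (horizontal axis, pooled over the genotypes) in the sedentary (circles) and running (triangles) libraries for each member. The spread of Dbp, Nr1d1, Nr1d2, Arntl, Per1 and Per2 is larger in the running libraries, up to 0.49 for Dbp, and that of the other 4 members is smaller.

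Several members varied together between libraries, and 4 of them (Nr1d1, Nr1d2, Dbp and Per1) went opposite to Arntl with an adjusted p below 0.05. To keep group effects out, each gene's deviation from its group mean was compared with that of Arntl over the 16 libraries, for 9 pairs, by permutation within groups. The Pearson correlation was -0.83 for Nr1d1 (p = 0.00125, adjusted p = 0.0112), -0.86 for Nr1d2 (p = 0.00342, adjusted p = 0.0118) and -0.85 for Dbp (p = 0.00392, adjusted p = 0.0118), with Spearman's rho of -0.87, -0.83 and -0.83 (permutation adjusted p = 0.00423, 0.0202 and 0.0202). For Per1 it was -0.70 (permutation p = 0.0185, adjusted p = 0.0416), with rho = -0.76 (adjusted p = 0.0655), and for Per2 -0.70 (p = 0.0333, adjusted p = 0.0599), with rho = -0.67. Clock varied in the same direction as Arntl (r = 0.47, rho = 0.37, permutation p = 0.0436, adjusted p = 0.0654). For Per3, Cry1 and Cry2, r was -0.34, 0.33 and -0.07 (adjusted p = 0.168, 0.214 and 0.793 by permutation) and rho was -0.46, 0.34 and -0.22. When the 2 libraries farthest from the median of Arntl were left out (p16 KO RUN replicate 14 and p16 WT RUN replicate 12), r was -0.82 for Nr1d1, -0.73 for Nr1d2, -0.79 for Dbp, -0.58 for Per1 and -0.52 for Per2.

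The correlations were also computed in running and sedentary libraries apart. Over the 8 running libraries alone, r with Arntl was -0.85 for Nr1d1, -0.93 for Nr1d2, -0.86 for Dbp, -0.85 for Per1, -0.89 for Per2 and -0.68 for Per3, and the exact adjusted p was between 0.0312 and 0.0468 for these 6. Over the 8 sedentary libraries, r was -0.71 for Nr1d1 and -0.78 for Dbp (exact p = 0.0521 and 0.0747), but -0.28 for Nr1d2, -0.04 for Per1 and 0.19 for Per2, and no pair had an adjusted p below 0.05. The difference between running and sedentary correlations was not tested. In TPM without scaling between libraries, the pairs with Nr1d1, Nr1d2 and Dbp had r of -0.74, -0.72 and -0.78 and permutation adjusted p of 0.0621, 0.0672 and 0.0621, so that no pair was below 0.05. Without the 3 libraries low in nuclear RNA, Nr1d1, Nr1d2, Dbp, Per1, Per2 and Per3 had an adjusted p between 0.0208 and 0.038 by permutation.

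**Figure D4:**
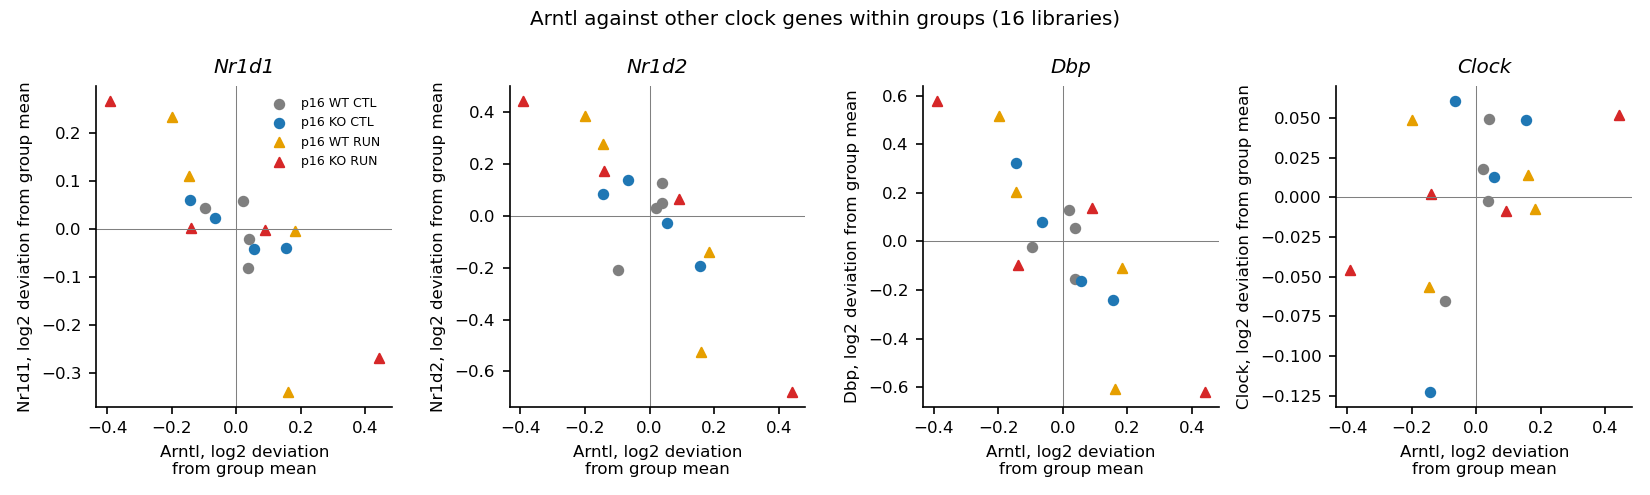
Deviation of log2 level from the group mean for Arntl (horizontal axes) against Nr1d1, Nr1d2, Dbp and Clock (vertical axes); each point is 1 of 16 libraries, circles for sedentary and triangles for running groups. Nr1d1, Nr1d2 and Dbp fall as Arntl increases (r of -0.83, -0.86 and -0.85), with the running libraries at both ends.

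Among Nr1d1, Nr1d2, Dbp, Per1 and Per2, the correlations of deviations were positive and are given as a description. They were 0.94 between Nr1d1 and Dbp, 0.91 between Nr1d2 and Dbp, 0.88 between Nr1d1 and Nr1d2, and 0.88 between Per1 and Per2. Per1 was closer to Nr1d2 (0.76) than to Dbp (0.58), and Per2 had 0.43 with both Nr1d1 and Dbp. Per2 and Per1 were high in replicate 15, for example, in which Dbp was low at 33.8 TPM. Cry1 had negative values with all 5 of these genes, from -0.28 to -0.45.

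A list of 28 other clock genes was examined beside the members, of which all 28 passed the filter. With running over both genotypes, 2 were higher and 2 lower at an unadjusted p-value below 0.05 (14.3% of the list against 17.5% of all genes), and none had an adjusted p-value below 0.05 by limma. Of 6 PAR bZIP factors and repressors, 3 were among the 4. Tef, a relative of Dbp that binds the same D-boxes, had 248 to 325 TPM in p16 WT CTL, 239.8 to 289 TPM in p16 KO CTL, 176 to 285 TPM in p16 WT RUN and 173 to 257 TPM in p16 KO RUN. Its log2 fold change was -0.33 ± 0.098 (limma, p = 0.00396, adjusted p = 0.119, exact permutation p = 0.00612). Hlf, the third factor of that family, had a log2 fold change of -0.42 ± 0.18 (p = 0.0314, exact permutation p = 0.0571) and was lowest in replicates 10 and 14 (49.6 and 45.6 TPM), as Tef, Dbp, Nr1d1 and Nr1d2 were. The unadjusted p-value of Hlf was 0.059 in TPM as deposited (log2 fold change -0.38), 0.0835 without the 3 libraries low in nuclear RNA (-0.40), and between 0.0521 and 0.0721 without any 1 of replicates 3, 4, 5, 6, 10, 12 and 14.

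Bhlhe41 (DEC2), a repressor that competes with BMAL1 and CLOCK for E-boxes, was higher with running. Its means were 21.995 ± 4.13 TPM in p16 WT CTL and 21.8 ± 2.53 TPM in p16 KO CTL, and 26.6 ± 0.979 TPM in p16 WT RUN and 27.7 ± 3.71 TPM in p16 KO RUN (SD, n = 4). The log2 fold change was 0.28 ± 0.077 (limma, p = 0.00234, adjusted p = 0.101, exact permutation p = 0.00408), and 6 of 8 running libraries were above all sedentary ones. Npas2, which can replace CLOCK as partner of BMAL1, had a log2 fold change of 0.18 ± 0.087 (limma, p = 0.0496, exact permutation p = 0.0563), and this call was lost under many settings. Its p-value was between 0.0501 and 0.113 without any 1 of replicates 1, 2, 4, 6, 7, 9, 10, 11, 12, 14 and 16, 0.0517 to 0.0519 with a pseudocount of 1, no filter or no variance trend, and 0.124 without the 3 libraries low in nuclear RNA, where the log2 fold change was still 0.18. None of the 8 kinases and ubiquitin ligases that set the stability of PER and CRY, and none of the 9 cofactors and outputs, had a p-value below 0.05 in this comparison (limma).

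**Figure D5:**
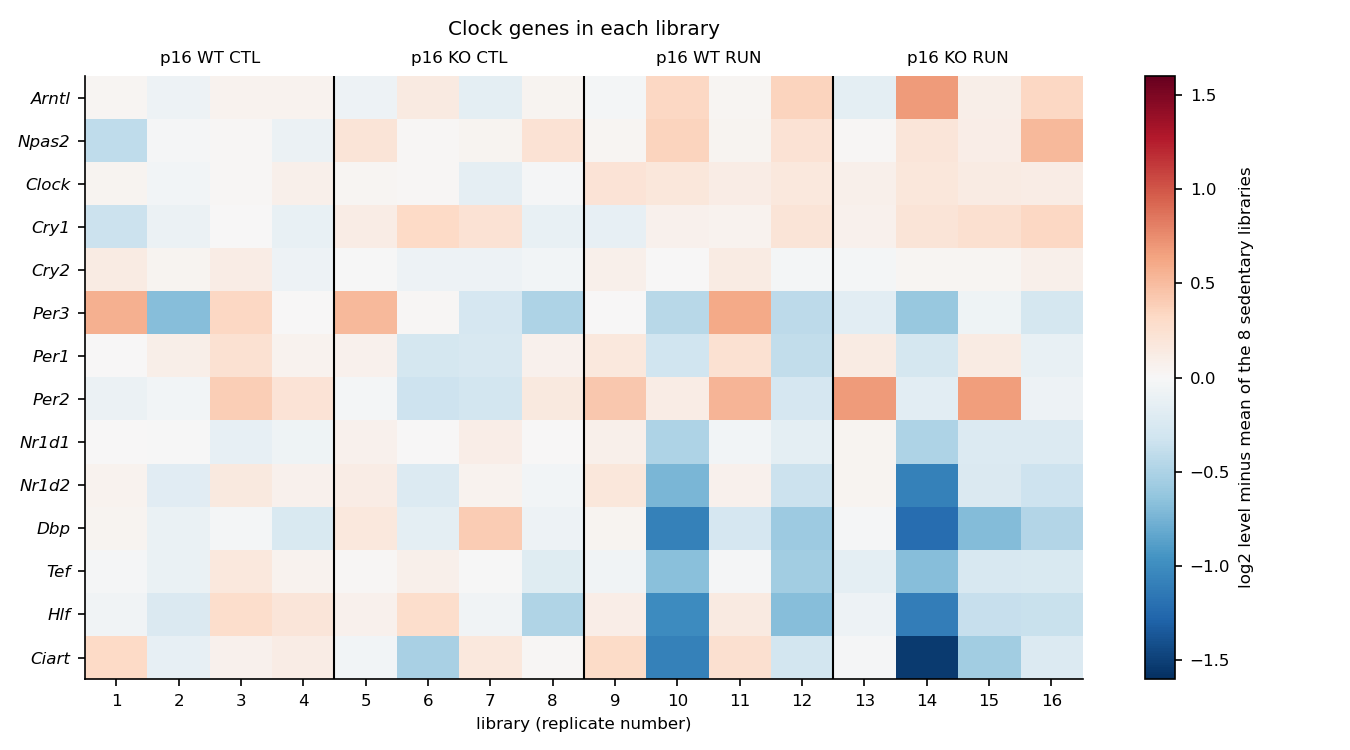
Log2 level of the members and of Npas2, Tef, Hlf and Ciart in each library, relative to the mean of the 8 sedentary libraries (colour scale); columns are libraries by replicate number and group. Replicates 10 and 14 show low Nr1d1, Nr1d2, Dbp, Tef, Hlf and Ciart together with high Arntl, and replicates 9, 11 and 13 resemble the sedentary libraries in these genes.

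The list was also read in the other comparisons. In Set A, 6 of 28 had an unadjusted p-value below 0.05 (21.4%, against 18.5% of all genes), with Arntl2, Bhlhe41 and Usp2 higher and Rora, Tef and Bhlhe40 lower. When the 3 libraries low in nuclear RNA were left out, 1 of these 28 was below 0.05 in Set A, Bhlhe41, while the share over all genes was 8.49% in place of 18.5%. The log2 fold changes of Rora, Tef, Bhlhe40 and Usp2 were then -0.21, -0.25, -0.25 and 0.33, against -0.27, -0.31, -0.27 and 0.29. Arntl2, a relative of Arntl, was 3.58 TPM in p16 WT CTL replicate 2 and 3.26 and 2.72 TPM in p16 KO CTL replicates 6 and 7, the 3 libraries low in nuclear RNA, and 6.52 TPM or more in all others. Its log2 fold change in Set A was 0.77 with them and 0.26 without. In Set C there were 3 (10.7% against 4.81%), Npas2 and Bhlhe41 higher and Tef lower. Set D gave 7 (25% against 8.63%), of which 5 were PAR bZIP factors and repressors, with Tef, Hlf, Bhlhe40 and Ciart lower and Bhlhe41 higher. The others were Npas2, which was higher, and Btrc, part of a ubiquitin ligase that acts on PER proteins, which was lower. When the libraries low in nuclear RNA were left out, Bhlhe41 was not below 0.05 in Set C (0.21, against 0.28 with them), nor were Bhlhe41 (0.27 against 0.34) and Ciart (-0.75 against -0.68) in Set D. Of the 28, 2 were then below 0.05 in Set C and 5 in Set D, against 5.88% and 11.2% of all genes. Set B gave Rora (3.57% of the list against 6.69% of all genes) and Set E none (against 3.87%). The knockout over both conditions gave Cipc (3.57% against 6.94%). The interaction gave Rora (-0.31 ± 0.12, limma, adjusted p = 0.797), which is 3.57% against 5.48%. Rora encodes a nuclear receptor that activates Arntl through the ROR element, and it is also on the list of thalamus and habenula markers, whose sum was 221 to 262 TPM in p16 WT CTL, 227 to 316 TPM in p16 KO CTL, 179 to 249 TPM in p16 WT RUN and 241 to 324.5 TPM in p16 KO RUN. The part of those cells in the Rora values was not tested. With the libraries low in nuclear RNA left out, Rora was not below 0.05 in Set A, Set B or the interaction (unadjusted p-values 0.0926, 0.197 and 0.087). Its log2 fold changes were then -0.21, 0.16 and -0.25, against -0.27, 0.21 and -0.31 with all libraries. Cipc, in the knockout over both conditions, was at an unadjusted p-value of 0.111 (-0.072, against -0.090). In Set B 3 others of the 28, Npas2 (higher), Arntl2 and Usp2 (lower), were then below 0.05, against 6.68% of all genes. In the interaction 3 others, Arntl2, Gsk3b and Nono, were so, against 7.25% of all genes. These were named after their values were seen.

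Inputs to the clock were represented by a pair of short lists. Of 9 immediate early genes, which neuronal activity induces, 1 was lower and none higher at an unadjusted p-value below 0.05 with running over both genotypes. Of 7 glucocorticoid response genes, 3 were higher and 1 lower. These are 11.1% and 57.1% of the lists, against 17.5% of all genes, with all libraries in the fit. Without the 3 libraries low in nuclear RNA the share of all genes was 8.73%, and these lists are not given for that setting. No gene of either list had an adjusted p-value below 0.05 (limma).

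The genes whose levels were most like those of Dbp and Arntl were found over the 16 libraries among 14428 genes averaging 1 TPM or more, group differences included and the members left out. For Dbp these were Narf (r = 0.94), Ciart (0.87), AI597479 (0.86), Tef (0.85) and Lum (0.84). Ciart, also called CHRONO, encodes a repressor of BMAL1 and CLOCK, and it and Tef came from the list of clock genes. Ciart was 6.29 and 4.53 TPM in replicates 10 and 14, against 8.90 to 16.9 TPM in the sedentary libraries. For Arntl the genes were Nr3c2 (r = 0.86), which encodes the mineralocorticoid receptor, Tmem169 (0.83), Gldn (0.81), Sema7a (0.80) and Kcnip3 (0.80). None of these 5 is on the list of clock genes. They were selected as the highest of many correlations, and no test was made.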

How the data were processed

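Dentate gyrus RNA of 16 libraries was sequenced with a stranded protocol. According to their methods and processing notes, the authors demultiplexed with bcl2fastq 2.20, masked adapters with Cutadapt 1.11, trimmed with ERNE, aligned with STAR to mm10 and quantified with StringTie. The deposited tables hold TPM and FPKM per gene, as well as the coverage (signal) by which the authors report read depth. The study's methods give depth as an average over samples. Total read counts are not used here, and the depth of single libraries is known only as relative coverage. The whole-transcript FPKM and TPM values of a library were proportional, and TPM was analysed. Entries were summed per gene name, and libraries were scaled by the median ratio over 13226 genes of at least 1 TPM in every library (factors 0.92 to 1.03). Genes averaging 0.1 TPM or more entered limma 3.58.1 (R 4.3.3) on log2(scaled TPM + 0.1), with a variance trend, two-sided, and Benjamini-Hochberg adjustment over all 17317 genes. Fold changes are on that scale, and levels are printed in TPM as deposited. A value after ± is a SE for a fold change and a SD for a level. Single genes were also tested by exact two-sided permutation (smallest p 0.0286 for 4 against 4 libraries). Correlations used 100000 permutations within groups, or all of them where exact.

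The study tested counts, so that the log-scale test replaces its method. Named were all members, those other clock genes with p below 0.05 with running over both genotypes (where the list is read in other comparisons, those below 0.05 there), and the 5 genes most like Dbp and Arntl. The members, the lists and the tests were chosen with earlier results of these data known. Other pseudocounts (1 and 0.01), filters (a mean of 1 TPM, and none), no scaling, no variance trend, 1 fit over 16 libraries and leaving out each library were tried. Leaving out the 3 libraries low in nuclear RNA, and correlating sedentary or running libraries alone, was chosen after seeing the data. Scripts were tested on simulated data. Nothing says more of the replicates than that they pool separate mice.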

Additional observations from a re-analysis of the deposited data

Results flagged for a closer look

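In p16 WT RUN, Bhlhe41 was 25.1 TPM in replicate 12, below the other 3 libraries of its group, which lay between 26.9 and 27.2 TPM. The gap was large against the range of the group by Dixon's test at the 95% level. It was the only one among 56 tests of members and named clock genes in groups of 4 libraries, where chance flags about 1 in 20.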

How the results depend on the processing

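With the knockout over both conditions, the confidence intervals of Dbp, Nr1d1 and Arntl spanned 0 (limma). The interval of the interaction spanned 0 for every member. Relative coverage separated running from sedentary libraries in full. No paired analysis was possible because the groups share no replicate number. Over both genotypes, Clock, Dbp, Tef and Bhlhe41 kept direction and an unadjusted p below 0.05 under every alternative with running, and Nr1d1, Hlf and Npas2 did not. With a filter of 1 TPM or with no filter, 1 member (Clock) had an adjusted p below 0.05 with running over both genotypes, against none otherwise. Of all genes, 191 of 14438 and 83 of 24421 were so in these fits, against 138 of 17317 in the main one. Members with an unadjusted p below 0.05 numbered 0 in Set B with a pseudocount of 1, no filter or no variance trend. The share of all genes was then 6.62%, 5.28% and 6.15%. They numbered 1 in Set D with no variance trend, against 8.24% of all genes. Without the 3 libraries low in nuclear RNA, they numbered 0 in Set A, Set B and the knockout over both conditions. There 8.49%, 6.68% and 5.09% of all genes were below 0.05 (18.5%, 6.69% and 6.94% with these libraries). The number of members was unchanged at 3 with running over both genotypes, 2 in Set D and 1 in Set C. The shares of all genes were 8.73%, 11.2% and 5.88%. Cry1 stood in place of Nr1d1 with running over both genotypes, and Per3 in place of Dbp in Set D. Of the pairs with Arntl, 4 had an adjusted p below 0.05, against 0 in TPM as deposited and 0 in sedentary libraries alone. The causes were not tested.

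Leaving out 1 library at a time, the members below 0.05 numbered 1 (replicate 7 left out) to 5 (replicate 13 left out) in Set A, 0 to 3 in Set B, 0 to 2 in Set C, 1 to 5 in Set D, 0 to 1 in Set E, 2 to 5 with running over both genotypes and 1 to 2 with the knockout over both conditions. The share of all genes below 0.05 was then 11.7% to 27.4%, 3.22% to 17.5%, 3.07% to 5.88%, 6.53% to 11.2%, 2.81% to 6.05%, 13.1% to 21% and 4.04% to 10.7%, in the same order (11.7% and 13.2% in Set A without replicates 7 and 13).

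Log2 fold changes that turned direction had all missed the threshold. Without the 3 libraries low in nuclear RNA they were -0.10 for Per1 in Set A, 0.014 for Per1, -0.0061 for Nr1d1 and -0.039 for Dbp in the knockout over both conditions, and 0.072 for Per3, 0.018 for Cry1 and -0.0020 for Clock in the interaction. In TPM as deposited they were 0.0039 for Cry2 in Set C, and -0.018 for Arntl, -0.022 for Nr1d1 and -0.017 for Dbp in the knockout over both conditions. In sedentary libraries alone, r with Arntl was 0.19 for Per2, 0.23 for Per3 and -0.0058 for Cry1.

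Leaving out 1 library, the log2 fold changes that turned ranged as follows. Cry1 ranged from -0.0050 to 0.14 in Set A. In Set B, Per3 ranged from -0.36 to 0.057, Arntl from -0.086 to 0.014 and Nr1d2 from -0.11 to 0.020. In Set C, Per2 ranged from -0.030 to 0.24, Per3 from -0.36 to 0.051, Cry2 from -0.054 to 0.017 and Nr1d1 from -0.18 to 0.0089. In Set E, Per1 ranged from -0.066 to 0.15, Per2 from -0.090 to 0.22, Per3 from -0.34 to 0.0080, Cry2 from -0.044 to 0.010, Arntl from -0.081 to 0.20, Nr1d1 from -0.18 to 0.021, Nr1d2 from -0.37 to 0.034 and Dbp from -0.34 to 0.073. With running over both genotypes, Per1 ranged from -0.094 to 0.0050. With the knockout over both conditions, Arntl ranged from -0.056 to 0.072, Nr1d1 from -0.034 to 0.060 and Dbp from -0.065 to 0.12. In the interaction, Per3 ranged from -0.27 to 0.14, Arntl from -0.047 to 0.23, Clock from -0.028 to 0.035 and Nr1d2 from -0.32 to 0.080.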
